A study of Mus musculus with 96 samples.

Results

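The promoter mark H3K4me3 was compared between Ogg1-/- and wild-type (WT) neuronal nuclei of the mouse hippocampus, in 3 libraries of each genotype out of 96 samples in the whole series. All 12628 consensus peaks of the NeuN+ H3K4me3 table were tested. The genes described are those whose promoter peaks led in each direction, together with lists of genes with known functions. Ogg1 encodes the DNA glycosylase that removes 8-oxoguanine, a guanine damaged by oxidation, and so starts base excision repair. The study asked whether this enzyme and the related glycosylase Mutyh shape chromatin and transcription in the hippocampus, and also profiled Mutyh-/- and double-knockout (DKO) mice, the NeuN- fraction, H3K27me3 and the Polycomb subunit Suz12.

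All mice were males of a C57BL/6N background, 6 months old, kept in their home cages. The Ogg1-/- mice were deficient in the glycosylase (no Cre line or conditional allele is named in the labels), and the WT mice were the untreated controls of the same background. Hippocampi of several animals of a genotype were pooled before each sort, so a library stands for a pool and not for 1 mouse. NeuN is the protein of the Rbfox3 gene, found in the nuclei of most mature neurons, and the NeuN+ gate therefore holds excitatory and inhibitory neurons together. In such mixed nuclei, fewer nuclei that carry a mark and less mark in each nucleus cannot be told apart.

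H3K4me3, histone H3 trimethylated at lysine 4, lies at the start sites of active genes and of genes held ready for activation. It is written by the SET1 and MLL (Kmt2) methyltransferase complexes, which are drawn to unmethylated CpG islands, and it is bound by a subunit of the general transcription factor TFIID. At the promoter of a neuronal gene it is a mark of an accessible start site, and its level is only loosely tied to how much RNA is made.

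The 6 libraries held between 205257 and 548706 reads in peaks, the highest number being that of Ogg1-/- replicate 3. The median promoter peak had 16 reads in the library with the fewest and 44 in the one with the most. WT replicate 2 stood apart: 4.73% of its reads lay in 63 peaks made mostly of repeats, against 0.130% to 0.335% in the other 5 libraries, and a single peak took 4.02% of its reads. The 2 promoter peaks of Rbfox3 were marked in all 6 libraries, with 53.0 to 168.7 CPM (the reads of a peak over its library's TMM-scaled reads in peaks, times 1000000). Of the 19 markers of hippocampal excitatory neurons, 18 had a promoter peak, summing to 1468 to 1603 CPM in the WT and 1581 to 1613 CPM in the Ogg1-/- libraries. Promoter peaks were listed for 5 of 11 astrocyte markers, 5 of 13 oligodendrocyte lineage markers, 1 of 11 microglia markers and 1 of 9 endothelial and mural markers, and none was listed for Gfap, Aqp4, Mog, Cx3cr1 or Cldn5. The summed astrocyte level was 268.8 to 323.5 CPM in WT and 231.4 to 343.4 CPM in Ogg1-/-, and the oligodendrocyte level was 290.1 to 308.0 and 284.1 to 390.5 CPM. Neither sum separated the genotypes. The sums cover unlike numbers of peaks, 20 for the neuronal, 5 for the astrocyte and 5 for the oligodendrocyte markers. Per peak, the mean level was 78.7, 59.3 and 62.8 CPM. Oaf, which the study used as a glial gene, also had a promoter peak here, with 39.7 to 60.9 CPM in WT and 15.1 to 57.8 CPM in Ogg1-/-. The glial markers that have a peak were thus marked at levels not far below the neuronal ones.

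The table has a window of 401 bases for each peak, and 11771 windows lay within 2 kb of an annotated start site. A differentially enriched region (DER) was a peak with an unadjusted p under 0.05 in the limma fit and an absolute log2 fold change over 0.5. By this rule 491 peaks, 3.89% of the 12628 tested, differed between Ogg1-/- and WT, 242 of them higher and 249 lower in Ogg1-/-. Of these, 454 were promoter peaks, 3.86% of the promoter peaks tested, with 222 higher (1.89%) and 232 lower (1.97%). The share of all peaks with an unadjusted p under 0.05 was 3.90%, below the 5% that the threshold allows. No peak passed an adjusted p of 0.05 in limma: 492 peaks had an unadjusted p under 0.05, the smallest adjusted p was 0.998, edgeR also called 0 and DESeq2 called 5. The 5 peaks that DESeq2 called, none of them at a promoter and annotated to Lrrc4c (2 peaks), Gm5458, Mir101c and Pak3 and named after their values were seen, had no read in any Ogg1-/- library and 643.5 to 3001 CPM in WT replicate 2. One of the Lrrc4c peaks and the Pak3 peak, which were also DERs in limma, had 836.7 and 740.0 CPM in WT replicate 1 as well.

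The count of DERs was 488 without TMM factors and 503 with cyclic loess, but it fell with the scaling factors of the deposited values. With these factors and the prior count kept at 2, 128 DERs were found, 100 higher and 28 lower, and on the log2(value + 1) scale of the deposited values 122, 95 higher and 27 lower. With TMM factors and the log2(scaled reads + 1) scale there were 481. Single libraries also moved the counts. Without Ogg1-/- replicate 3, the deepest library, the lower promoter DERs numbered 386 and the higher 198, and without Ogg1-/- replicate 2 the higher promoter DERs numbered 140. The median log2 fold change of all promoter peaks was 0.0016, and the median standard error (SE) of a promoter peak's log2 fold change was 0.33. Most peaks are promoter peaks, so the scaling to TMM-scaled reads in peaks sets this median near 0. A change of H3K4me3 shared by most promoters could therefore not be seen. The balance of higher and lower DERs also depends on the scaling.

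**Figure D1:**
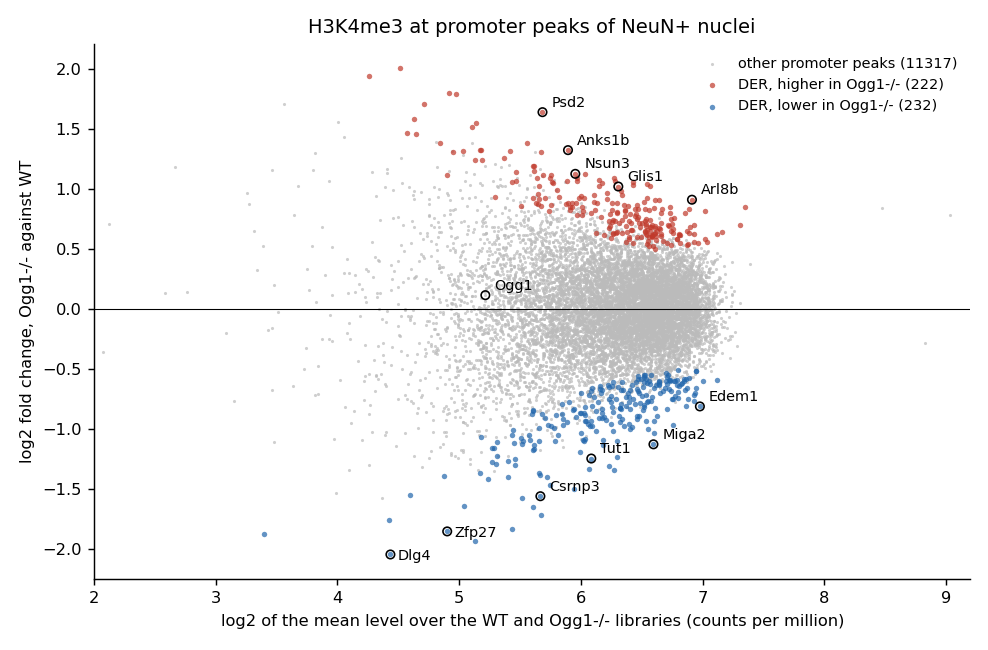
Each point is a promoter peak, with the log2 of its mean level in CPM over the 6 libraries on the x axis and its log2 fold change (Ogg1-/- against WT) on the y axis. The 222 higher DERs (red) and 232 lower DERs (blue) lie at the rim of the cloud of 11317 other promoter peaks (grey), and Ogg1 itself lies near the zero line at 0.12.

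The Ogg1 promoter was looked at first. Its window, chr6:113326823-113327223 (GRCm38), covers the start site and part of the 5' untranslated exon. It held 44.6, 26.4 and 33.8 CPM in the WT libraries and 56.7, 28.9 and 32.4 CPM in the Ogg1-/- libraries. The groups overlapped, and the log2 fold change was 0.12 with a 95% interval from -1.14 to 1.38. Which exons the knockout removes was not given in the labels used here, and a mark at the start site does not show whether the coding part is intact, so this value checks neither the deletion nor the labels. The double-knockout libraries had 0 to 42.1 CPM there. DKO replicate 1 held only 96023 reads in peaks, a median of 7 per peak, so its values rest on few reads.

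To choose the promoters to describe, the DERs in which all 3 Ogg1-/- libraries lay on one side of all 3 WT libraries were ranked by p. Such separation was met by 1190 promoter peaks, 10.1% of those tested, with 5.12% higher and 4.99% lower, and by 310 promoter DERs (2.63% of promoter peaks; 154 higher, 156 lower). The 12 named genes with the smallest p in each direction follow. Since they were ranked on this contrast, their values are a description: each had an adjusted p of 0.998, and the separation of their libraries was a condition of the choice.

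Stretches of the windows show what kind of sequence was read, base composition and motifs being the features compared further on. They are taken from the GRCm38 reference on the strand of the gene, outside every exon of GENCODE M21 and RefSeq, for the leading promoters with at least 150 such bases in a row (4 higher, then 4 lower), those of Psd2, Tmco6 and Fam234a not being shown. Capitals mark matches, on either strand, to the GC box GGGCGG, the CCAAT box, the E-box CACGTG, the CRE TGACGTCA, the NRF1 motif and the ETS motif CCGGAAG.
Arl8b, chr6:108783378-108783558, plus strand: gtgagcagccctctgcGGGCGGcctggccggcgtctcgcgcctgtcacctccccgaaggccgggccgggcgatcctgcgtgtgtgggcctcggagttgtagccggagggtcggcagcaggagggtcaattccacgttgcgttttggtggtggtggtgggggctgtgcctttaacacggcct
Cyth1, chr11:118248034-118248273, minus strand: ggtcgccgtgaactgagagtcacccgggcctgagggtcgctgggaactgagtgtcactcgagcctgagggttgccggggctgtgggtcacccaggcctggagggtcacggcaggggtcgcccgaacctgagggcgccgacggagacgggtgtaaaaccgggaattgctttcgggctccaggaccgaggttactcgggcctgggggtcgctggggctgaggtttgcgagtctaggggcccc
Ube2b, chr11:51999902-52000141, minus strand: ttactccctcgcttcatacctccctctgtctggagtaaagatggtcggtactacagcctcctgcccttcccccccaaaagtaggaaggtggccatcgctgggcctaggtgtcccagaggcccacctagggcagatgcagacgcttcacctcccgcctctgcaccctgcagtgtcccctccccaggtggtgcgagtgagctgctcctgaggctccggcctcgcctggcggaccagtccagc
Pxdn, chr12:29938325-29938562, plus strand: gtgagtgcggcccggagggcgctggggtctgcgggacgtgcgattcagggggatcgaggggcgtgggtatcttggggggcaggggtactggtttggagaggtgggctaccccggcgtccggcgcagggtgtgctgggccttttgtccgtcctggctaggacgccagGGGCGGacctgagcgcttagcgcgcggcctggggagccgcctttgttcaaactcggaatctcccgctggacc
Miga2, chr2:30364576-30364749, plus strand: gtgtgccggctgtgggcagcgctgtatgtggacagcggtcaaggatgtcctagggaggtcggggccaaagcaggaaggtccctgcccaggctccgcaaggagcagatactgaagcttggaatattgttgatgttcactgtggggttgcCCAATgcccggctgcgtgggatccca
Tut1, chr19:8954125-8954364, plus strand: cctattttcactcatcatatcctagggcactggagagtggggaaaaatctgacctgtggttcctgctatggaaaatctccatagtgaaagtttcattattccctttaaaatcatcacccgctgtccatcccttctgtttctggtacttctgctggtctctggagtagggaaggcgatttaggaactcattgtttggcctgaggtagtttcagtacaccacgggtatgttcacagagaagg
Csrnp3, chr2:65931655-65931864, plus strand: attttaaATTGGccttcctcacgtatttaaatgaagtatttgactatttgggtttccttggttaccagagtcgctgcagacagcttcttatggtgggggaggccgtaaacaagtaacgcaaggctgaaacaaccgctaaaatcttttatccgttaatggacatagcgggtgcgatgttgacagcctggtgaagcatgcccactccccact
Dlg4, chr11:70024124-70024320, plus strand: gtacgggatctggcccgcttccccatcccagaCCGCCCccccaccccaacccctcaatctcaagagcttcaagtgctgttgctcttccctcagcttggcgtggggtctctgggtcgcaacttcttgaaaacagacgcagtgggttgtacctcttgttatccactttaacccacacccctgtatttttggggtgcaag
The windows of Arl8b, Cyth1, Ube2b, Pxdn, Miga2 and Tut1 lie wholly after the annotated start, so their stretches are downstream of it. A capital there does not mark an element upstream of the start. The stretches shown are not a sample of the DERs, and their base composition is not compared. Whole windows of all DERs are compared further on.

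Among the higher promoters, a first group encodes proteins of membrane traffic. Arl8b, a small GTPase that couples lysosomes to their motor proteins, had the smallest p of all promoter peaks. Its window (chr6:108783158-108783558, part of the first exon and bases downstream of it) held 70.7, 79.3 and 94.8 CPM in WT and 147.3, 183.2 and 147.4 CPM in Ogg1-/-. The lowest Ogg1-/- library was well above the highest WT library, and the log2 fold change was 0.91 (SE 0.22). Psd2, an exchange factor that activates Arf6 at neuronal membranes, had 37.2, 17.6 and 13.5 CPM in WT and 75.6, 81.9 and 82.7 CPM in Ogg1-/-. The Ogg1-/- values lay close together while WT replicate 1 was the highest WT value, and the log2 fold change was 1.64 (SE 0.47), the largest of the 12. Psd2 rested on 4 to 10 reads in each WT library. Cyth1, cytohesin 1, also an Arf exchange factor, had 78.1, 92.6 and 54.1 CPM in WT and 143.6, 139.8 and 129.5 CPM in Ogg1-/- at a window in an intron, 68 bases after the start. Its log2 fold change was 0.85 (SE 0.26). Bmp2k, a kinase related to the endocytic kinase AAK1, had 104.1, 57.3 and 47.4 CPM in WT and 136.0, 130.2 and 124.1 CPM in Ogg1-/-, and its WT libraries differed more among themselves than its Ogg1-/- libraries.

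A second group acts in excitability and at synapses. Anks1b encodes a postsynaptic ankyrin-repeat protein that binds PSD-95. At a start site inside the gene (chr10:90829317-90829717) it had 33.5, 22.0 and 37.2 CPM in WT and 109.6, 91.6 and 62.9 CPM in Ogg1-/-. Its log2 fold change there was 1.33 (SE 0.39). Anks1b has 2 other promoter peaks, and neither was a DER. At the most upstream start the log2 fold change was -0.46 (SE 0.29), with 127.7 ± 12.0 CPM in WT and 91.0 ± 7.0 in Ogg1-/- (SD, n = 3), and at the middle start it was 0.51 (SE 0.38). Whether the start sites of the gene differed from each other was not tested. Kcnh5, a voltage-gated potassium channel of the ether-a-go-go family, had 48.3, 30.9 and 50.8 CPM in WT and 139.8, 57.8 and 104.3 CPM in Ogg1-/-. The Ogg1-/- libraries were widely spread, replicate 2 lying only just above the WT range, and the log2 fold change was 1.05 (SE 0.32).

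The other 6 higher promoters belong to genes of varied function. Glis1, a zinc finger transcription factor of the Gli-related family, had 55.8, 35.3 and 60.9 CPM in WT and 102.0, 120.5 and 100.7 CPM in Ogg1-/- (log2 fold change 1.02, SE 0.28). Nsun3, which methylates the methionine transfer RNA of mitochondria, had 22.3, 39.7 and 50.8 CPM in WT and 83.1, 91.6 and 84.5 CPM in Ogg1-/-. The ratio of the Ogg1-/- to the WT mean was 2.13 for Glis1 and 2.30 for Nsun3. Gstp1, a glutathione S-transferase that detoxifies electrophiles, had 26.0 to 54.1 CPM in WT and 94.4 to 100.7 CPM in Ogg1-/-, and its log2 fold change was 1.08. Pxdn, peroxidasin, a haem peroxidase that cross-links collagen IV, had 22.0 to 57.5 CPM in WT and 79.3 to 106.1 CPM in Ogg1-/-. For Ube2b, a ubiquitin-conjugating enzyme of the RAD6 type with a part in tolerance of DNA damage, the WT range was 71.1 to 123.4 CPM and the Ogg1-/- range 136.0 to 226.6 CPM. Pomt2, which starts the O-mannosyl glycans of dystroglycan, had 40.9 to 61.7 CPM in WT and 84.5 to 154.3 CPM in Ogg1-/-, and its window also covers the divergent start of Gstz1, so the 2 genes cannot be told apart at this peak. The 12 log2 fold changes ran from 0.82 to 1.64.

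**Figure D2:**
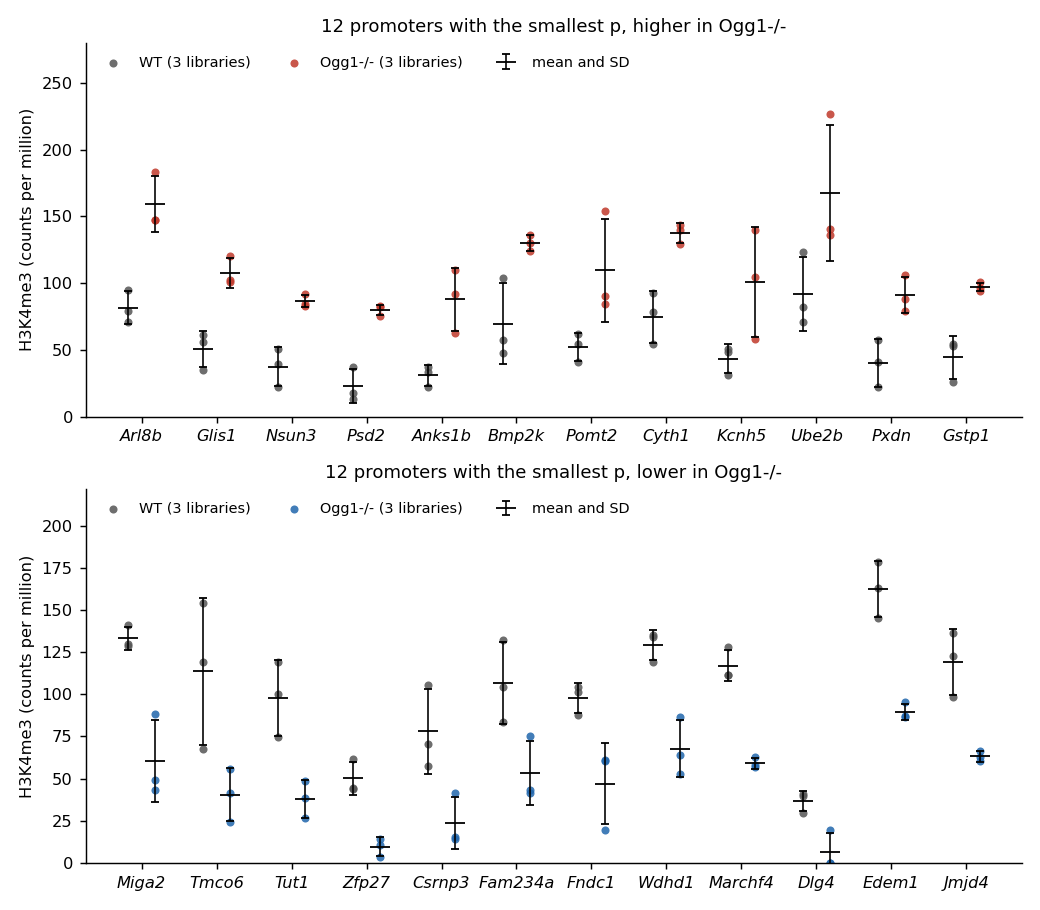
H3K4me3 in CPM (y axis, from 0) in each WT library (grey) and each Ogg1-/- library (red or blue) at the 12 leading higher and 12 leading lower promoters, with bars for the mean and SD of 3 libraries. The groups do not overlap at any of the 24, by the rule that chose them, and the gap is narrow at Kcnh5, where the lowest Ogg1-/- library had 57.8 and the highest WT library 50.8 CPM.

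Among the lower promoters, Miga2, mitoguardin 2, an outer mitochondrial membrane protein that promotes fusion, had the smallest p. Its window (chr2:30364349-30364749) held 130.2, 141.0 and 128.6 CPM in WT and 49.1, 43.4 and 88.1 CPM in Ogg1-/-. The WT values were tight, replicate 3 was the highest Ogg1-/- library, and the log2 fold change was -1.12 (SE 0.28). Tut1, the terminal uridylyl transferase that adds the U tail to U6 small nuclear RNA, had 100.4, 119.0 and 74.5 CPM in WT and 26.4, 38.6 and 48.5 CPM in Ogg1-/- (log2 fold change -1.24, SE 0.35). Tmco6 had 119.0, 154.3 and 67.7 CPM in WT and 41.6, 24.1 and 55.7 CPM in Ogg1-/-, with the WT libraries spread by more than the gap between the groups. In all 3 genes Ogg1-/- replicate 3, the deepest library, was the Ogg1-/- library nearest to WT.

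Genes of transcription, replication and translation formed part of the lower set. Csrnp3, a nuclear protein of a family that activates transcription, had 70.7, 105.8 and 57.5 CPM in WT and 15.1, 14.5 and 41.4 CPM in Ogg1-/- at chr2:65931655-65932055 (log2 fold change -1.56, SE 0.46). Its other promoter peak did not go the same way, with 54.8 ± 11.1 CPM in WT and 79.9 ± 30.3 in Ogg1-/- (SD, n = 3), the log2 fold change being 0.44 (SE 0.38). Zfp27, a zinc finger protein, had 44.6, 61.7 and 44.0 CPM in WT and 3.78, 14.5 and 10.8 CPM in Ogg1-/-, that is 1, 3 and 6 reads against 12 to 14 reads in the WT libraries. Its log2 fold change was -1.85 (SE 0.54). Wdhd1, a replisome protein that links the helicase to DNA polymerase alpha, had 119.0 to 135.4 CPM in WT and 53.0 to 86.3 CPM in Ogg1-/-, at a window shared with the divergent start of Socs4. Jmjd4, a hydroxylase of the translation termination factor eRF1, had 98.1 to 136.6 CPM in WT and 60.4 to 66.5 CPM in Ogg1-/-, and its window also overlaps a transcript of Snap47.

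Dlg4 encodes PSD-95, the main scaffold of the excitatory postsynaptic density, and had the largest fold change of the 24 leading genes in the limma fit, though with edgeR (-1.96 against -2.32), DESeq2, a prior count of 5 or without Ogg1-/- replicate 2 that of Zfp27 was larger. At chr11:70023920-70024320 it had 29.7, 39.7 and 40.6 CPM in WT and 0, 0 and 19.8 CPM in Ogg1-/-. These were 8, 9 and 12 reads in WT and 0, 0 and 11 reads in Ogg1-/-, so the log2 fold change of -2.04 (SE 0.65) rested on few reads and ran from -3.30 to -1.31 over the alternative fits. The gene has 2 other promoter peaks. Upstream, at chr11:70019177-70019577, the level was 44.0 ± 12.0 CPM in WT and 38.5 ± 29.6 in Ogg1-/- (SD, n = 3), and the log2 fold change was -0.50 (SE 0.52), while Ogg1-/- replicate 2 was again low there at 4.82 CPM. The third window was nearly empty, with 6.2 ± 10.7 and 13.7 ± 15.3 CPM. Whether the Dlg4 start sites differed from each other was not tested.

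The last lower promoters were Marchf4, Edem1, Fndc1 and Fam234a. Marchf4, a membrane-bound ubiquitin ligase, had 111.6, 127.8 and 111.7 CPM in WT and 56.7, 57.8 and 62.9 CPM in Ogg1-/-, both groups being tight (log2 fold change -0.91, SE 0.29). Edem1, which hands misfolded glycoproteins to degradation in the endoplasmic reticulum, had 178.5, 163.1 and 145.5 CPM in WT and 86.9, 86.8 and 95.3 CPM in Ogg1-/- (log2 fold change -0.81, SE 0.26). It was among the most strongly marked promoters in WT, above 99.9% of promoter peaks. Fndc1, a fibronectin type III domain protein, had 88.0 to 104.1 CPM in WT and 19.3 to 61.1 CPM in Ogg1-/-, and Fam234a had 83.7 to 132.0 and 41.4 to 75.6 CPM. The 12 log2 fold changes ran from -2.04 to -0.81.

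The leading promoters differed in WT level, as a choice on a difference from WT favours: the median higher promoter stood above 13.9% of all promoter peaks in WT and the median lower promoter above 84.4%. Over all DERs the median WT level was 60.7 CPM in the 222 higher and 99.2 CPM in the 232 lower promoter peaks, against 81.1 CPM over all promoter peaks.

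Sequence was read from GRCm38 for every window, a measure that the choice did not use. The median GC content was 67.3% in the higher and 64.8% in the lower promoter DERs, against 67.1% over all promoter peaks. The median CpG count was 35 in the higher, 32 in the lower and 35 in all. The quartiles of GC content overlapped almost wholly, at 61.1% to 72.6% for the higher and 60.1% to 70.1% for the lower DERs. The GC box GGGCGG stood in 67.1% of the higher, 62.1% of the lower and 69.3% of all promoter windows, and the CCAAT box in 26.1%, 26.3% and 23.1%. The ETS motif CCGGAAG was in 10.8%, 13.8% and 12.3%, the E-box CACGTG in 9.01%, 8.62% and 7.72%, the CRE TGACGTCA in 0.901%, 1.72% and 1.29%, and the NRF1 motif in 0.450%, 1.72% and 0.620%, or 1, 4 and 73 windows. A run of 6 G or 6 C (GGGGGG), the kind of sequence in which guanine is oxidised most readily, was in 31.5% of the higher, 28.9% of the lower and 30.3% of all windows. GGGCGG can overlap GGGGGG, and a match is a description of the letters only. The widest gap to all promoters was that of the GC box in the lower DERs (62.1% against 69.3%), and no test of the differences was made.

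The functions of the changed promoters were read from lists of genes. The share of DERs over all promoter peaks was 3.86%, and it is the background for each list. All lists were made with earlier results of these data known, so no share is support for an effect on a list. List members whose libraries overlapped between the genotypes fall outside the rule for naming and are named after their values were seen. Of the 18 base excision repair genes with a promoter peak, 2 were DERs (11.1%) and the median log2 fold change was -0.16. Tdg, the glycosylase that removes thymine from G-T mispairs and acts in DNA demethylation, was lower, with 93.0, 83.7 and 94.8 CPM in WT and 52.9, 53.0 and 53.9 CPM in Ogg1-/- (log2 fold change -0.70, SE 0.32). Parp1, which senses single-strand breaks, was higher (0.57, SE 0.27), but its libraries overlapped between the genotypes. Of the 20 genes of H3K4 methylation, with 23 peaks, only Kmt2d, an MLL-type methyltransferase, was a DER. Its level was 66.9, 88.1 and 74.5 CPM in WT and 113.3, 110.9 and 113.3 CPM in Ogg1-/- (0.53, SE 0.24). None of the 12 peaks of Polycomb repressive complex 2 genes was a DER, and their log2 fold changes ran from -0.40 to 0.36.

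Of 61 promoter peaks of glutamate receptors and postsynaptic scaffolds, 5 were lower and 1 was higher. This was 9.84%, beside 3.86% over all promoter peaks, while the list median was -0.06. The list was made with earlier results known and Dlg4 was already a leading gene, so the share is no support for an effect on the list. Besides Dlg4, the lower DERs were Grin1, Homer1, Grm2 and Camk2a. Grin1, the obligate subunit of NMDA receptors, had 111.6, 105.8 and 159.1 CPM in WT and 94.4, 53.0 and 79.1 CPM in Ogg1-/- (-0.70, SE 0.28). Homer1, a scaffold that ties metabotropic receptors to the density, had 126.4, 154.3 and 142.1 CPM in WT and 124.7, 53.0 and 93.5 CPM in Ogg1-/- (-0.67, SE 0.29). In both, Ogg1-/- replicate 2, the library with the fewest reads in peaks, was the lowest, and the nearest libraries of the groups were close. Grm2, a metabotropic glutamate receptor, had 55.8, 39.7 and 57.5 CPM in WT and 11.3, 4.82 and 46.7 CPM in Ogg1-/- (-1.36, SE 0.58). Camk2a, the kinase of the postsynaptic density, had 89.2, 114.6 and 84.6 CPM in WT and 49.1, 28.9 and 91.7 CPM in Ogg1-/- (-0.82, SE 0.37). Ogg1-/- replicate 2 was again the lowest at Grm2 and Camk2a, and replicate 3 lay inside the WT range. At Dlg4 replicates 1 and 2 both had 0 CPM. The higher Dlgap1, a scaffold that binds PSD-95 (0.60, SE 0.28), also had overlapping libraries.

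Voltage-gated ion channels had 5 higher and 2 lower DERs among 56 promoter peaks, with a median log2 fold change of 0.02. This was 12.5%, beside 3.86% over all promoter peaks. The list holds the leading gene Kcnh5 and was made with earlier results known, so its share is no support for an effect either. Hcn2 and Hcn4 form channels of the hyperpolarisation-activated current. Hcn2 had 63.2, 88.1 and 71.1 CPM in WT and 98.2, 149.4 and 106.1 CPM in Ogg1-/- (0.61, SE 0.26). Hcn4 had 55.8, 61.7 and 67.7 CPM in WT and 94.4, 115.7 and 89.9 CPM in Ogg1-/- (0.64, SE 0.28). Both pairs of groups were separated without touching. Cacnb4, a calcium channel beta subunit, had 52.1, 4.41 and 40.6 CPM in WT and 71.8, 67.5 and 55.7 CPM in Ogg1-/- (1.19, SE 0.51), and its WT value was lowest in replicate 2. The other members were Kcnh5, described above, and Scn4b (1.32, SE 0.64), Scn2b (-1.15, SE 0.50) and Kcnq3 (-0.59, SE 0.28), whose libraries overlapped. None of the 63 synaptic vesicle and release peaks and none of the 22 peaks of GABA synthesis, receptors and interneuron genes was a DER, with ranges of -0.60 to 0.61 and -1.19 to 1.03.

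In the remaining lists the counts were small. Of 81 axon guidance peaks 1 was a DER, Sema5a, a transmembrane semaphorin, with 55.8, 22.0 and 40.6 CPM in WT and 79.3, 101.2 and 77.3 CPM in Ogg1-/- (1.07, SE 0.38). Of 54 Wnt peaks 2 were higher and 1 was lower. Apc, a scaffold of the complex that destroys beta-catenin, had 119.0, 105.8 and 104.9 CPM in WT and 185.1, 183.2 and 160.0 CPM in Ogg1-/- (0.65, SE 0.22). Its relative Apc2 was lower, with 11.2, 26.4 and 23.7 CPM in WT and 0, 0 and 1.80 CPM in Ogg1-/-, a promoter with few reads in any library. The third was Tcf7, a transcription factor of the pathway (0.94, SE 0.35), with overlapping libraries. The 35 peaks of immediate early genes held 1 DER, the lower Homer1, and the 31 peaks of developmental transcription factors held 1, the higher Glis1.

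Glycolysis had 1 higher and 2 lower DERs among 22 peaks, 13.6% beside 3.86% over all promoter peaks. Eno2, the neuronal enolase, had 78.1, 66.1 and 67.7 CPM in WT and 117.1, 125.3 and 104.3 CPM in Ogg1-/- (0.66, SE 0.31). Tpi1, triosephosphate isomerase, had 59.5, 114.6 and 57.5 CPM in WT and 34.0, 33.7 and 44.9 CPM in Ogg1-/- (-0.87, SE 0.37), and Slc2a3, the neuronal glucose transporter, was lower with overlapping libraries (-1.33, SE 0.60). Members of the same pathway lay on both sides. Oxidative phosphorylation had 3 lower DERs and no higher one among 67 peaks, near the background at 4.48%: Ndufb6 and, with overlapping libraries, Ndufb2 of complex I (-0.55 and -0.83) and Uqcr10 of complex III (-0.78). The list median was 0.0015. Of 65 cytosolic ribosomal protein peaks 1 was a DER, Rps12 (0.56), and of 36 antioxidant defence peaks none was. The excitatory neuron markers had 4 DERs among 20 peaks, 20% beside 3.86% over all promoter peaks. These were the lower Map2, a dendritic microtubule protein, Camk2a and Grin1 and the higher Wfs1, a membrane protein of the endoplasmic reticulum that marks CA1 neurons. Camk2a and Grin1 are the peaks already counted in the glutamate receptor list. Map2 had 66.9, 70.5 and 71.1 CPM in WT and 22.7, 28.9 and 34.2 CPM in Ogg1-/- at this window (-1.13, SE 0.51). The list's median was 0.19, opposite in sign to most of its DERs. No astrocyte, oligodendrocyte, microglia or endothelial marker was a DER.

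**Figure D3:**
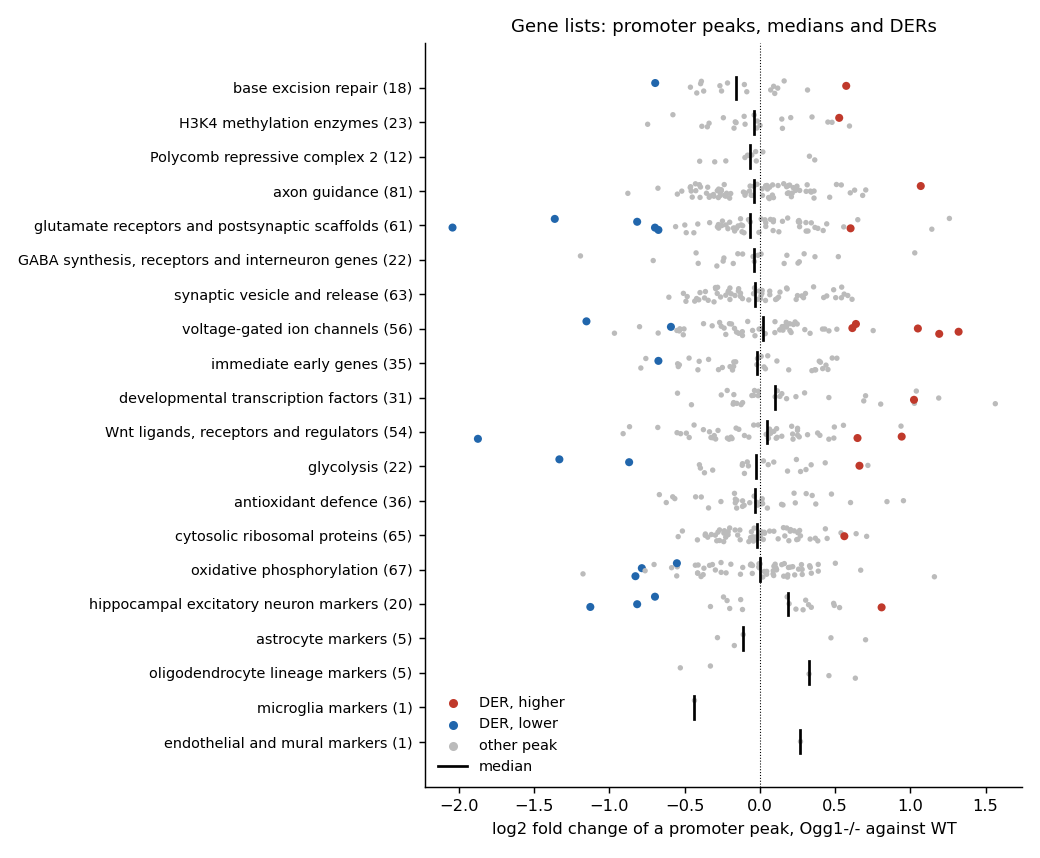
Log2 fold change (x axis) of each promoter peak in the gene lists (y axis, number of peaks in brackets), with DERs in red (higher) or blue (lower), other peaks in grey and the list median as a black bar. The medians of the 15 pathway lists lie between -0.16 and 0.10, and the DERs are single points away from them.

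The promoter share of the reads in peaks was 95.6%, 90.5% and 96.0% in WT and 95.6%, 95.8% and 95.5% in Ogg1-/-. WT replicate 2 was the low value, the library with the reads in repeats. The means were 94.1% ± 3.0 and 95.6% ± 0.16 (SD, n = 3) and the difference was 1.56 percentage points (exact two-sided permutation test, p = 0.90, the smallest p that 3 against 3 allows being 0.10). Without WT replicate 2 the difference was -0.19 percentage points.

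Values at the same promoters were read in the NeuN- nuclei, whose libraries were not used to choose them. Of 3270 NeuN- H3K4me3 peaks, 171 (5.23%) were DERs, 1 (0.0306%) with an adjusted p under 0.05 in limma, an intergenic peak annotated to Axin2. No NeuN- peak passed it with edgeR, with the filter on low counts, or without WT replicate 3, Ogg1-/- replicate 2 or Ogg1-/- replicate 3. Of the 222 higher promoter DERs of neurons, 55 had an overlapping NeuN- peak, and the median log2 fold change there was -0.11, with 23 above 0. Of the 232 lower DERs, 49 had one, with a median of 0.15 and 30 above 0. Over the 2892 promoter peaks with a NeuN- match the median was 0.04 and 52.4% were above 0. At the matched DERs of neurons, 2 of the 55 were higher and 2 lower DERs in NeuN-, and 2 of the 49 were higher and 1 lower. The directions of the neuronal DERs were not seen in the NeuN- values, though no test of the difference between the fractions was made. Among the leading genes 6 had a NeuN- peak. The log2 fold change there was -0.46 for Glis1, 0.42 for Nsun3, -1.15 for Bmp2k (SE 0.63), -0.36 for Cyth1, 0.02 for Ube2b and 0.09 for Jmjd4, and none was a DER. The SEs ran from 0.48 (Ube2b) to 0.81 (Nsun3), and the median NeuN- peak had 5 to 14.5 reads in these libraries. A change as large as in neurons could therefore go uncalled in NeuN-.

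**Figure D4:**
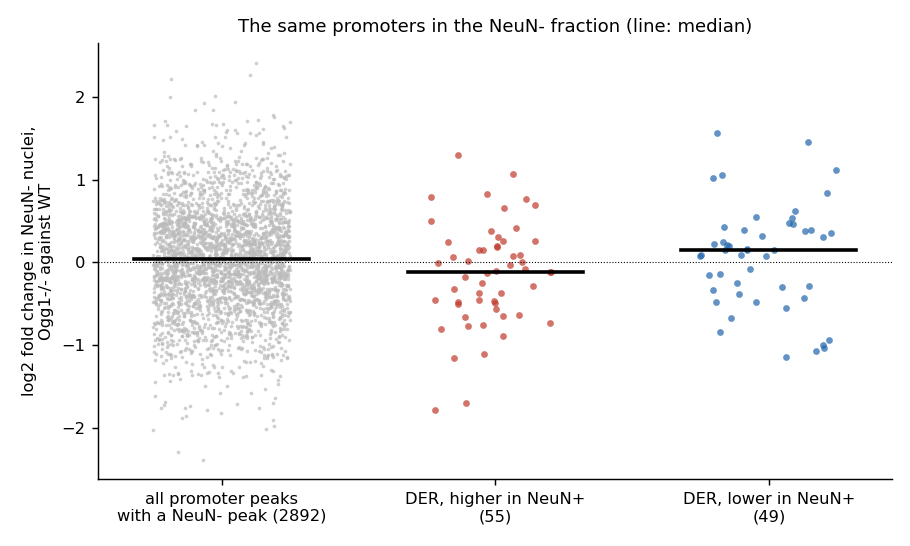
Log2 fold change (Ogg1-/- against WT) in NeuN- nuclei (y axis) at all 2892 promoter peaks with a NeuN- match (grey), at 55 promoters that were higher DERs in NeuN+ (red) and at 49 that were lower (blue), with medians as black lines. The medians are 0.04, -0.11 and 0.15, and the points of all 3 sets spread across zero.

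None of the 24 leading promoter windows overlapped a peak of H3K27me3, the mark of Polycomb repression, or of Suz12 in the NeuN+ nuclei. Over all promoter windows 131 (1.11%) overlapped an H3K27me3 peak and 150 (1.27%) a Suz12 peak. Among the higher DERs these numbers were 3 and 6 of 222, and among the lower DERs 1 and 3 of 232. At none of these matched peaks was H3K27me3 or Suz12 itself a DER. Of the 131 promoter windows with an H3K27me3 match, 1 had a higher and 7 a lower DER of that mark. Of the 150 with a Suz12 match, 2 had a higher and 1 a lower DER. Over all peaks the shares of DERs were 4.74% for H3K27me3 and 4.26% for Suz12. At such shares so few matched peaks would mostly hold no DER, so nothing is drawn from their absence.

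The leading promoters were also read in the other knockouts, which were compared with the same 3 WT libraries, so that a WT library that is low or high moves all these fold changes together. Over the 12 higher promoters the log2 fold change ran from 0.12 to 1.31 in Mutyh-/- and from 0.31 to 1.39 in DKO, and over the 12 lower promoters from -1.12 to 0.04 and from -0.79 to 0.19. At Arl8b the log2 fold change was 0.51 in Mutyh-/- and 0.75 in DKO, beside 0.91 in Ogg1-/-, and the levels were 103.5 to 127.7 CPM and 135.9 to 145.0 CPM. At Nsun3 the values were 1.31 and 0.96 beside 1.13. At Ube2b they were 0.12 and 0.54 beside 0.82, and at Gstp1 0.62 and 0.31 beside 1.08. Among the lower promoters, Dlg4 had -0.64 in Mutyh-/- and -0.06 in DKO beside -2.04, with 14.5 to 26.7 and 28.1 to 41.8 CPM. Fam234a had 0.04 and -0.38 beside -0.94, and Marchf4 -1.12 and -0.46 beside -0.91. DKO replicate 1 held only 96023 reads in peaks, so the DKO values rest in part on few reads. Whether Ogg1-/- differed from the other knockouts at these promoters was not tested.

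On chromosome 6, where Ogg1 lies, 57 promoter peaks fell within 5 Mb of its start, and 4 of them (7.02%) were DERs, beside 3.92% on the whole chromosome and 3.86% over all promoter peaks. Arl8b and Rpusd3, a mitochondrial pseudouridine synthase family member, were higher, and Edem1 and Ift122, a subunit of the intraflagellar transport complex, were lower. Rpusd3 and Ift122 are named for their place near Ogg1, after their values were seen. Ift122 had 55.8, 92.6 and 27.1 CPM in WT and 15.1, 0 and 19.8 CPM in Ogg1-/- (-1.93, SE 0.74). Rpusd3 lies 92 kb from the Ogg1 window and had 63.2, 22.0 and 64.3 CPM in WT and 83.1, 139.8 and 93.5 CPM in Ogg1-/- (1.07, SE 0.35).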

How the data were processed

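H3K4me3 was measured by chromatin immunoprecipitation and sequencing of sorted hippocampal nuclei. Per the labels and the study's methods, the authors aligned reads to GRCm38 with Bowtie2 2.3.5.1, called enriched regions, counted reads over consensus peaks with DiffBind 3.10.1 and annotated peaks with ChIPseeker 1.36. What they deposited is a signal: the read number of a peak over a scaling factor of its library. All values were whole multiples of 1 step per library (100% within 0.001), so reads were recovered as value over step. In 5 columns of the NeuN- H3K4me3, H3K27me3 and Suz12 tables the step lay so near 1 that whole reads and rounded values cannot be told apart, and none of them is in the NeuN+ H3K4me3 table.

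From the recovered reads, log2 CPM (prior count 2, TMM factors) was fitted with limma-trend (limma 3.58.1, edgeR 4.0.16 for TMM) over the 12 NeuN+ H3K4me3 libraries with genotype as the only term, and p was adjusted over all peaks by Benjamini-Hochberg. Scripts were tested on simulated data. Other settings tried were edgeR's quasi-likelihood test, DESeq2 1.42.0, other scalings, priors and filters, and leaving out each library. The 12 promoter DERs of smallest p in each direction with separated libraries were named, 1 peak per gene, clone-type gene models (10 of 310 separated DERs) being counted only, and list members by the same separation. Members and lists were chosen with earlier results of these data known. Reads carried no molecular identifiers, and input libraries were not used here.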

Additional observations from a re-analysis of the deposited data

How the results depend on the processing

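The 24 leading promoters kept their direction in all 19 alternatives, and in 447 of 456 gene and alternative pairs they stayed DERs. The exceptions were Wdhd1, Marchf4, Edem1 and Jmjd4 with the factors of the deposited values on either scale, and Fam234a with these factors and a prior count of 2. The direction of the 24 was fixed by the choice of separated libraries. Their calls were favoured by the choice of the smallest p in the same reads. Neither the kept direction nor the kept calls are a sign of stability. The adjusted p of the 24 leading promoters was 0.684 or higher in every alternative. With the deposited factors on the log2(value + 1) scale the DERs numbered 122 (95 higher, 27 lower), the promoter DERs 99 (76 higher, 23 lower) and the median of promoter peaks was 0.079. This setting changes the factors and the scale together, so each was changed alone, in fits chosen after seeing the data. The factors alone gave 128 DERs (100 higher, 28 lower), 105 promoter DERs (82 higher, 23 lower) and a median of 0.076, and the scale alone 481 DERs. Without TMM factors the median was 0.023. The sum of the deposited values ran from 210553 to 421957 over the 6 libraries. DESeq2 gave 5 peaks with an adjusted p under 0.05, and the other alternatives 0. Leaving out 1 library at a time gave 336 to 627 DERs (164 to 322 higher, 172 to 414 lower), 305 to 584 promoter DERs (140 to 291 higher, 165 to 386 lower) and medians of -0.0083 to 0.017. The promoter share difference ran from -0.19 to 2.53 percentage points. NeuN- DERs numbered 171, or 111 with edgeR and 108 to 200 with 1 library left out, 108 being without Ogg1-/- replicate 2. With the replicate number as a block there were 501 DERs, 466 of them at promoters, and 189 in NeuN-, and none of the 24 leading promoters lost its call. Of the 50 DERs that belong to a list or lie near Ogg1, 43 kept it, and Parp1, Tdg, Rps12, Uqcr10, Kcnq3, Iqsec3 and Zfp599 did not. Same-numbered WT and Ogg1-/- libraries correlated at 0.037, 0.0096 and -0.013 in their deviations, and unlike-numbered ones at -0.029 to 0.018. With so few reads per peak, these values cannot show whether same-numbered libraries were handled together. A promoter peak had a median of 16 to 44 reads per library and its log2 fold change a median SE of 0.33, which limits the precision of every value.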

Other observations

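Promoter DERs were spread over the genome. Among the autosomes and X, between 2.55% (chromosome 7) and 5.76% (chromosome 18) of promoter peaks were DERs, and chromosome 6 had 3.92%. Higher and lower DERs occurred on every one of them, with 10 higher and 13 lower on chromosome 6.

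Genes named Zfp, most of which encode zinc finger proteins of the C2H2 type, had 7 higher and 6 lower DERs among 317 promoter peaks, 4.10% against 3.86% over all promoter peaks, with a median log2 fold change of 0.03. This list and a list of Arf GTPases and their exchange factors were made after the values were seen. The Arf list had 3 higher DERs (Arl8b, Psd2, Cyth1) and 1 lower (Iqsec3, with overlapping libraries) among 38 promoter peaks, with a median of 0.03, and Arl8b, Psd2 and Cyth1 were the reason for making it. Of the promoter windows of all genes, 12.4% had the start of another coding gene within 500 bases. Of the leading windows, 1 of the 12 higher (Pomt2) and 1 of the 12 lower (Wdhd1) were so placed. The window of Jmjd4 overlapped a transcript of Snap47 without such a start.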
